A study of Mus musculus with 12 samples.

Results

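The 10 enzymes described here make serine from glucose and pass its one-carbon unit through folate. They were chosen by name, as the probe sets whose only gene symbol in the platform annotation was Phgdh, Psat1, Psph, Shmt1, Shmt2, Mthfd1, Mthfd2, Mthfd1l, Aldh1l1 or Aldh1l2. This gave 24 probe sets of the 34945 with 1 symbol, and each of the 10 genes was among the 18193 genes tested. RNA came from neural stem cells sorted directly from the subventricular zone, the germinal layer beside the lateral ventricles, of adult male C57B6J mice, and was hybridised to Affymetrix MOE 430 2.0 arrays. No genetic modification is given for any group. The 3 groups were quiescent cells (3 arrays), quiescent cells in the recovery phase 48 h after irradiation (4 arrays, called irradiated below) and activated cells (3 arrays). The sources used here do not state the number of animals behind a sample, the radiation dose or the sorting markers. The p-values therefore measure only how these samples vary among themselves, which can be technical.

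Serine is made in the cytosol from the glycolytic intermediate 3-phosphoglycerate by Phgdh, Psat1 and Psph, acting in that order. The serine hydroxymethyltransferases, Shmt1 in the cytosol and Shmt2 in mitochondria, move a one-carbon unit from serine to tetrahydrofolate and leave glycine. In mitochondria, Mthfd2 and Mthfd1l carry the unit on to formate, which leaves for the cytosol, where Mthfd1 loads it onto folate again for the synthesis of purines and thymidylate. Aldh1l1 in the cytosol and Aldh1l2 in mitochondria burn the unit to carbon dioxide, and Aldh1l1 is widely used as an astrocyte marker. Mthfd2 is known from embryonic and dividing cells and is low in most adult tissue.

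The deposited values were intensities, the brightness of a probe set on a linear scale. An intensity of 10 or below was near the lower limit of the deposited values on every array and is read as background. Between 56.6% and 59.2% of all probe sets lay there on each array, and 75th percentiles of intensity ranged from 83 to 104. Differences are on the log2(intensity + 16) scale with their standard error (SE), which understates a change from or to the lower limit, and a gene rose or fell where its adjusted p in limma was under 0.05. The number of arrays, 10 in all, limits the precision. In bulk RNA of sorted cells, fewer cells of a type and less RNA per cell cannot be told apart.

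The labelled states could be checked against marker genes. Summed over 10 proliferation genes, intensity was 983 to 1685 on quiescent arrays, 684 to 2070 on irradiated arrays and 39108 to 47927 on activated arrays, and all 10 rose in activated cells against either other group. Summed over 15 astroglial and stem cell genes it was 158497 to 167007, 152551 to 168058 and 34223 to 53063. Some genes listed as markers of other cell types gave signal as well, and bulk RNA does not show which cells it came from. The sum over 9 oligodendrocyte genes was 23989 to 33524 in quiescent, 17132 to 37089 in irradiated and 1784 to 5757 in activated cells, where Mog and Mag were near the lower limit on every array. The 9 neuroblast genes summed to 584 to 1940, 282 to 2187 and 22642 to 32315. The 9 mature neuron genes summed to 754 to 13529 on quiescent arrays, with the highest value on replicate 1, to 1766 to 2479 on irradiated arrays and to 263 to 1218 on activated arrays. The 6 choroid plexus genes summed to 10831 to 17883, 10050 to 20269 and 36 to 128. Of these, 2 (Folr1 and Clic6) were near the lower limit on every quiescent array, 1 on every irradiated array and 5 on every activated array. The 7 ependymal genes summed to 667 to 2444, 862 to 2645 and 46 to 161. Of these, 5 were near the lower limit on every quiescent array, 1 on every irradiated array and 6 on every activated array. The ependymal sum in quiescent cells thus rests on few of the listed genes. Endothelial (35 to 1200) and microglial (43 to 4475) sums varied between arrays of the same group and overlapped between groups, and neither erythroid gene exceeded the lower limit on any array. Against quiescent cells, 11 of the 15 astroglial, 5 of the 9 oligodendrocyte, 1 of the 9 mature neuron, 1 of the 7 ependymal and 1 of the 6 choroid plexus genes fell in activated cells, and 5 of the 9 neuroblast genes rose. Over all genes, 3.12% fell and 2.89% rose in that comparison. The sums of the proliferation, astroglial, oligodendrocyte, neuroblast, choroid plexus and ependymal lists moved with the activated state without overlap. In the choroid plexus and ependymal lists only 1 gene each passed against quiescent cells. The part of any of these markers in the results below was not tested.

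The sequences upstream of 4 enzymes are shown because these were the enzymes that passed the test in the comparison of activated with irradiated cells, 2 in each direction. They are the 250 bases before the transcription start, 5′ to 3′ on the strand of the gene, from the RefSeq promoter table of the GRCm38.p6 build. Capitals mark CCAAT boxes (CCAAT, or ATTGG on the other strand) and GC boxes (GGGCGG, or CCGCCC on the other strand). Mthfd2 lies on the minus strand (chr6:83317605-83317854), Mthfd1l on the plus strand (chr10:3972825-3973074), Aldh1l1 on the plus strand (chr6:90550543-90550792) and Phgdh on the minus strand (chr3:98339970-98340219).
Mthfd2: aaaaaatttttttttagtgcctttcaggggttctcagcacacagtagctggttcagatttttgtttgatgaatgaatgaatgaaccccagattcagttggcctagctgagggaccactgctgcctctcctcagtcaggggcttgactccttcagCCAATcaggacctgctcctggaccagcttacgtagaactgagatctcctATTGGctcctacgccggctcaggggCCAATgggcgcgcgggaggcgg
Mthfd1l: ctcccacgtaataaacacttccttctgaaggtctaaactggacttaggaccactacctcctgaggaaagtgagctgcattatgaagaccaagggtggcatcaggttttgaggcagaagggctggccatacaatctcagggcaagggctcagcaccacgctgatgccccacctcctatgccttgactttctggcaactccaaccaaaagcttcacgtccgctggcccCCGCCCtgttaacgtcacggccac
Aldh1l1: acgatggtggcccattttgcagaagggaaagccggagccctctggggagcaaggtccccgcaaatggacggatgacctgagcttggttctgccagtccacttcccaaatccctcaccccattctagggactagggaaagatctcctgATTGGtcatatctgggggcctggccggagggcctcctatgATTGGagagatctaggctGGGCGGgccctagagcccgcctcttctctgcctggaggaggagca
Phgdh: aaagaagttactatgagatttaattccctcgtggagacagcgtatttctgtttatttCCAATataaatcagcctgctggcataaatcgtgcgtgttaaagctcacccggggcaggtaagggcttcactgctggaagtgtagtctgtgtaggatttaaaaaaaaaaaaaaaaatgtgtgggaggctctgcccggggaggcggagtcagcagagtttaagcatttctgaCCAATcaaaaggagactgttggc
The Mthfd2 sequence holds 3 CCAAT boxes, at 96, 47 and 22 bases before the start counted from their first printed base. The Phgdh sequence holds 2, at 193 and 23, and the Aldh1l1 sequence 2, at 103 and 63, beside a GC box at 45. The Mthfd1l sequence has a GC box at 24 and no CCAAT box. Of the 10 such windows found for 9 of the enzymes, 7 hold a CCAAT box against 33.8% of all 32851 windows, and 6 hold a GC box against 32.7%. The motifs searched did not overlap in the 4 windows printed. The amino acid response element TGATGNAA, bound by Atf4 and its partners, was in none of the 10 windows on either strand and in 3.45% of all windows. The E-box CACGTG (6.02% of all windows) and the E2F forms TTTGGCGC (0.417%) and TTTCCCGC (0.895%) were not in these windows either. A match or its absence in so short a window describes these letters and says nothing of binding. No window for Aldh1l2 was found in the promoter source used here.

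Activated cells were compared first with unirradiated quiescent cells. The mitochondrial enzymes Mthfd2 and Mthfd1l rose in activated cells, from background in quiescent cells. Aldh1l1, which removes one-carbon units from the folate pool, fell. The serine synthesis enzymes did not pass the test with the probe set used for each gene, although all activated arrays lay below all quiescent arrays for Phgdh and Psat1. Of the 10 enzymes, 2 rose, 1 fell and 7 did not pass, where 6.01% of all genes tested passed (2.89% higher and 3.12% lower). The arrays of the 2 groups did not overlap for 3 enzymes that were higher and 3 that were lower, against 9.86% and 9.47% of all genes. The median log2 difference was 0.47 over the 10 enzymes and 0 over all genes.

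**Figure D1:**
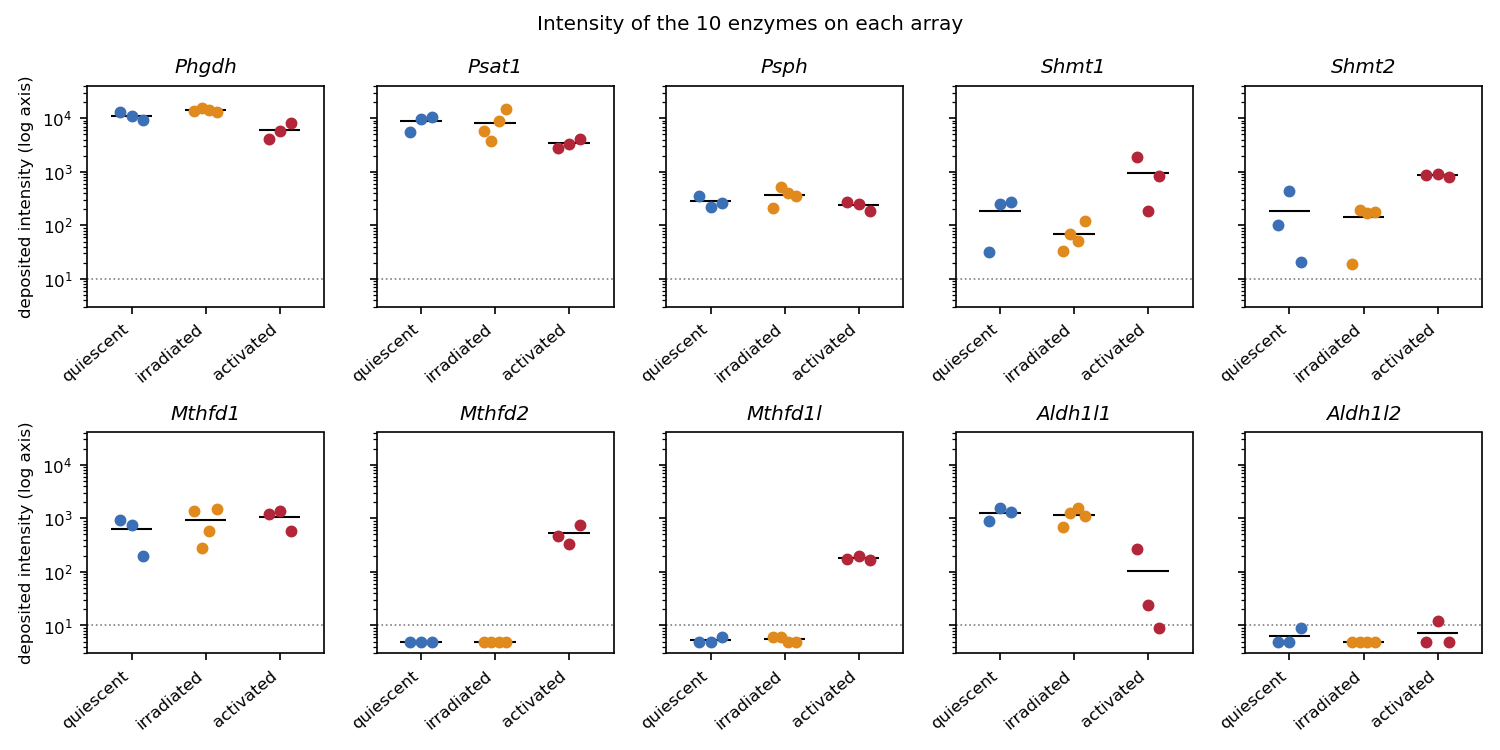
Deposited intensity of each enzyme on every array (points; log axis) in the 3 groups, with the group mean as a black bar and a dotted line at an intensity of 10, near the lower limit. Mthfd2 and Mthfd1l lie under the line on all quiescent and irradiated arrays and above 100 on all activated arrays, while Aldh1l1 falls from a mean of 1254 in quiescent cells to between 9 and 273 on activated arrays.

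Mthfd2, which carries methylene-tetrahydrofolate dehydrogenase and cyclohydrolase activity in mitochondria, had an intensity of 5 on each of the 3 quiescent and 4 irradiated arrays. On activated arrays it stood at 476, 338 and 765 (526 ± 218, SD, n = 3). All activated arrays were thus far above the others, which were all at background. The log2 difference from quiescent cells was 4.61 ± 0.24 (adjusted p = 5.44e-05). Its second probe set stood at 4 or 5 outside the activated group and at 66, 232 and 400 within it, a log2 difference of 3.35 ± 0.51 (adjusted p = 0.00909 in the fit of all probe sets).

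Mthfd1l, the mitochondrial formyltetrahydrofolate synthetase that releases formate, stood at 5, 5 and 6 on quiescent arrays and at 5 or 6 on irradiated arrays. On activated arrays it was 174, 196 and 170 (180 ± 14.0, SD, n = 3). The groups did not overlap, and the activated arrays lay close together. The log2 difference was 3.20 ± 0.05 (adjusted p = 5.34e-08), and leaving out each array in turn gave 3.14 to 3.23. Mthfd1l had 1 probe set. For Mthfd1l and Mthfd2, the quiescent and irradiated arrays were at the lower limit, where values hardly vary. All groups share 1 estimate of the spread in the fit, so these arrays make the SE and p-value small. In both comparisons with activated cells, those values do not measure the spread among activated samples alone.

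Shmt2, which feeds this mitochondrial route from serine, had intensities of 101, 435 and 21 on quiescent arrays and of 891, 907 and 809 on activated arrays. With this probe set, the activated arrays agreed closely and all exceeded the quiescent arrays, which differed widely among themselves. The groups overlapped for 1426423_at, at 60, 68 and 236 on quiescent and 219, 237 and 301 on activated arrays. They also overlapped for 1455985_x_at, at 78, 154 and 83 against 208, 151 and 173. The log2 difference of the probe set used for the gene, 2.82 ± 1.00, did not pass (adjusted p = 0.206). Of its other probe sets, 1434204_x_at passed (0.46 ± 0.08, adjusted p = 0.0184 in the fit of all probe sets), at intensities of 5, 7 and 5 against 15, 10 and 17, close to the lower limit.

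Aldh1l2, the mitochondrial enzyme that oxidises formyltetrahydrofolate, was at 5 or 9 on quiescent arrays, at 5 on each irradiated array and at 5, 12 and 5 on activated arrays. It was near the lower limit on 9 of the 10 arrays, so no level can be given. Of the 4 mitochondrial enzymes, 2 thus rose and 2 did not pass, where 2.89% of all genes rose.

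Among the cytosolic folate enzymes, Aldh1l1 stood at 891, 1566 and 1304 on quiescent arrays (1254 ± 340, SD, n = 3) and at 273, 24 and 9 on activated arrays (102 ± 148, SD, n = 3). The highest activated array was below the lowest quiescent array. The log2 difference was -4.23 ± 0.85 (adjusted p = 0.0290). It did not pass when any of 8 arrays was left out: each quiescent array, irradiated replicates 2, 3 and 4, and activated replicates 2 and 3, with a highest adjusted p of 0.103 without activated replicate 2. The difference stayed between -5.29 and -3.52 throughout. When the irradiated arrays were left out of the fit altogether, its adjusted p was 0.153. Activated replicate 1, which had the most Aldh1l1 of its group, also had the highest summed astroglial intensity of its group, 53063 against 41474 and 34223. Part of this list, 11 of 15 genes, fell in the same comparison, where 3.12% of all genes fell. Phgdh and Psat1 were also lower in activated cells without overlap. With the probe set used for each gene, both had their lowest activated value on replicate 1 (4152 and 2737). Phgdh probe sets 1437621_x_at and 1456584_x_at were also lowest there, but 1426658_x_at was highest there (196 against 90 and 123). Psat1 probe set 1454607_s_at was lowest on replicate 3 (1612, against 2316 on replicate 1). Whether astroglial RNA bears on these values was not tested. The other Aldh1l1 probe set exceeded 10 on only 2 arrays.

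Shmt1, the cytosolic serine hydroxymethyltransferase, had intensities of 32, 250 and 270 on quiescent arrays and of 1865, 182 and 820 on activated arrays. Activated replicate 2 lay within the quiescent range. The log2 difference of 2.14 ± 0.98 did not pass (adjusted p = 0.358). Mthfd1, the trifunctional cytosolic enzyme, stood at 940, 747 and 198 on quiescent arrays and at 1222, 1343 and 569 on activated arrays. With this probe set the groups overlapped, and the log2 difference was 0.89 ± 0.81 (adjusted p = 0.731). Probe set 1415917_at did not overlap, at 305, 323 and 104 on quiescent and 641, 607 and 494 on activated arrays. Nor did 1436704_x_at, at 283, 272 and 138 against 488, 356 and 390. Neither passed in the fit of all probe sets (1.33 ± 0.74, adjusted p = 0.509, and 0.84 ± 0.50, adjusted p = 0.563).

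Phgdh, the enzyme that commits 3-phosphoglycerate to serine, had intensities of 13162, 10878 and 9403 on quiescent arrays and of 4152, 5821 and 8037 on activated arrays. The groups did not overlap, but Phgdh stayed bright in activated cells. Its log2 difference was -0.93 ± 0.23 and did not pass with this probe set (adjusted p = 0.0666), with a 95% interval from -1.47 to -0.39. Without activated replicate 3 it was -1.16 (adjusted p = 0.0169), and it also passed under quantile normalization (-1.08, adjusted p = 0.0312) and with array weights (-0.97, adjusted p = 0.0399). All 4 Phgdh probe sets carry the suffix x, by which the maker marks sets with probes that also match other transcripts. The same suffix is on Mthfd1 probe set 1436704_x_at and on every Shmt2 probe set but 1426423_at. In the fit of all probe sets, 1426423_at did not pass against quiescent cells (1.18 ± 0.52, adjusted p = 0.336). It passed against irradiated cells (2.30 ± 0.48, adjusted p = 0.0327).

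Psat1, the aminotransferase of the second step, stood at 5602, 9757 and 10776 on quiescent arrays and at 2737, 3371 and 4068 on activated arrays. Every activated array was lower than every quiescent array. The log2 difference of -1.32 ± 0.51 did not pass (adjusted p = 0.243). Psph, the phosphatase that completes the route, stood at 351, 224 and 265 against 272, 254 and 189, values that overlapped. Its log2 difference of -0.21 ± 0.33 had a 95% interval from -0.98 to 0.55 (adjusted p = 0.975).

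Several probe sets measured most of these genes, and they moved the same way. The 4 Phgdh probe sets differed by -0.92 to -1.13 between activated and quiescent cells, and 2 of them passed in the fit of all probe sets. The second Psat1 probe set, 1454607_s_at, passed too (-1.47 ± 0.33, adjusted p = 0.0469). The 4 Shmt1 probe sets were all higher in activated cells, by 1.28 to 2.66, and the 4 Shmt2 probe sets by 0.46 to 2.82. Of the 24 probe sets, 4 were called higher and 4 lower, where 5.42% of all probe sets were called. When each gene was given the mean of its probe sets, 7 of the 10 enzymes passed, 4 higher and 3 lower, where 7.84% of all genes did. Phgdh then fell by 1.01 (adjusted p = 0.00208), Psat1 by 1.39 (0.0493) and Aldh1l1 by 2.25 (0.0212), each on the log2 scale. Shmt1 rose by 1.95 ± 0.43 (adjusted p = 0.0350) and Shmt2 by 1.30 ± 0.26 (adjusted p = 0.0250). Psph, Mthfd1 and Aldh1l2 did not pass in either form.

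**Figure D2:**
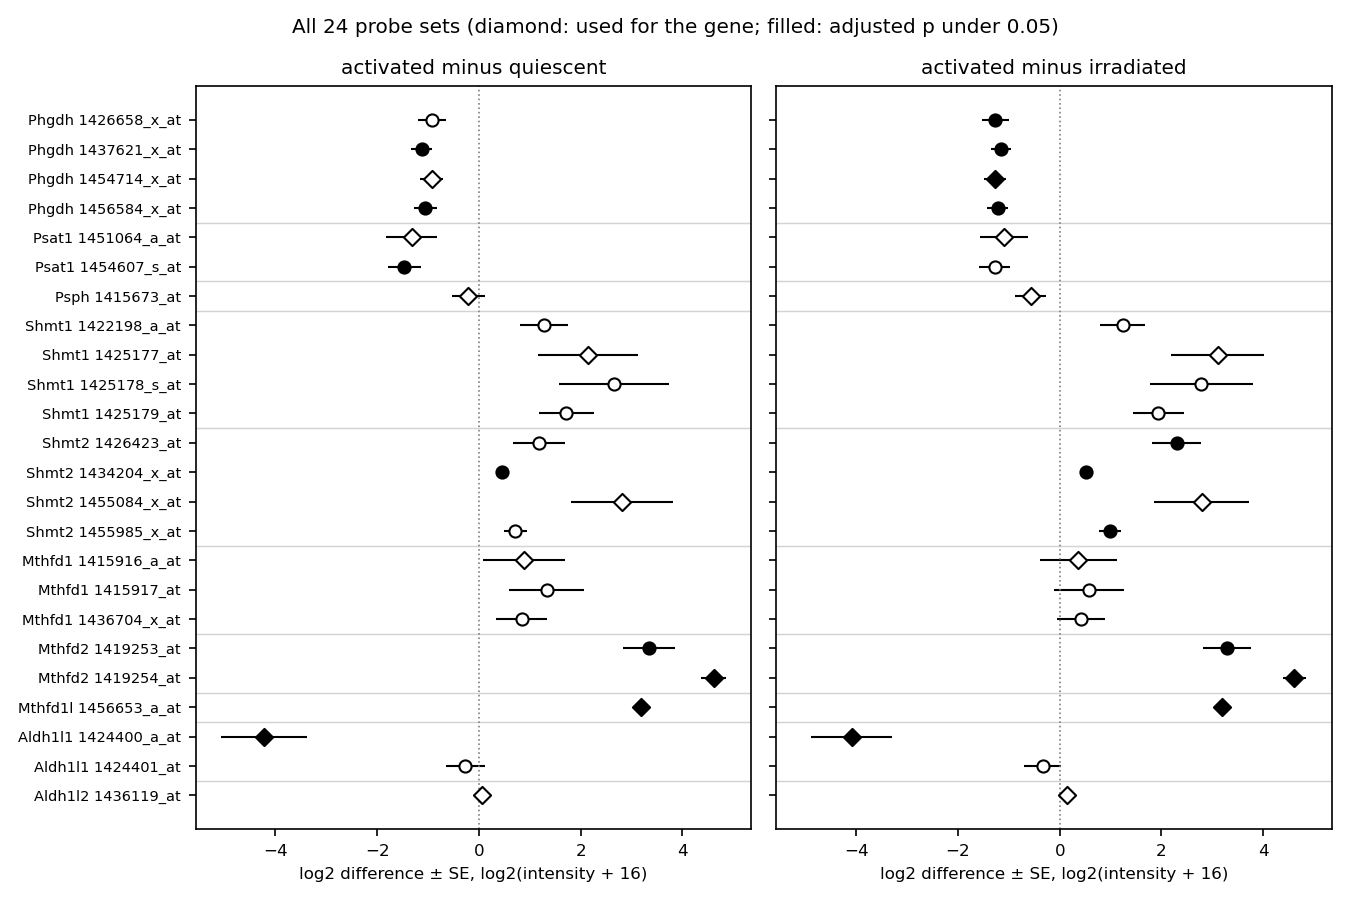
Log2 difference ± SE of each of the 24 probe sets, activated minus quiescent (left) and activated minus irradiated (right). Diamonds mark the probe set used for the gene and filled symbols an adjusted p under 0.05 in the fit of all probe sets. All probe sets of Phgdh and Psat1 lie below 0 and all of Shmt1, Shmt2, Mthfd1, Mthfd2 and Mthfd1l above 0 in both panels.

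Activated and irradiated quiescent cells were compared next. This comparison shares its activated arrays with the one above, so it is no independent repeat. Of the 10 enzymes, 2 rose (Mthfd2 and Mthfd1l), 2 fell (Phgdh and Aldh1l1) and 6 did not pass, where 7.08% of all genes passed (3.4% higher and 3.68% lower). Arrays did not overlap for 4 enzymes that were higher and 2 that were lower, against 8.23% and 7.99% of all genes. Phgdh stood at 13394, 15322, 14059 and 13246 on irradiated arrays (14005 ± 946, SD, n = 4). These lay close together and well above the activated arrays, and the log2 difference was -1.27 ± 0.22 (adjusted p = 0.0128). Leaving out each array in turn kept it between -1.50 and -1.03 with a highest adjusted p of 0.0489, but without the dimmest 50% of genes its adjusted p was 0.0597. All 4 Phgdh probe sets passed in this comparison, and 6 probe sets of the 24 were called higher and 5 lower (6.41% of all probe sets were called).

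Mthfd2 differed by 4.61 ± 0.23 (adjusted p = 3.41e-05) and Mthfd1l by 3.19 ± 0.05 (adjusted p = 3.34e-08). Aldh1l1 had intensities of 702, 1279, 1548 and 1091 on irradiated arrays, all above the activated arrays. Its log2 difference of -4.09 ± 0.80 (adjusted p = 0.0219) did not pass when any of 5 arrays was left out, irradiated replicates 2, 3 and 4 and activated replicates 2 and 3, with a highest adjusted p of 0.0888. When the quiescent arrays were left out altogether, its adjusted p was 0.0763. Shmt1 stood at 34, 68, 51 and 121 on irradiated arrays, all below the activated arrays, and differed by 3.10 ± 0.92 (adjusted p = 0.109). Shmt2 stood at 19, 197, 170 and 177 on irradiated arrays and differed by 2.79 ± 0.94 (adjusted p = 0.161). Without the dimmest 50% of genes both passed (adjusted p = 0.0301 for Shmt1 and 0.0490 for Shmt2), and Shmt1 also passed without the genes near the lower limit on every array (adjusted p = 0.0440). By the mean of probe sets, 6 of 10 enzymes passed (8.99% of all genes), with Shmt1 at 2.27 ± 0.40 (adjusted p = 0.0125) and Shmt2 at 1.65 ± 0.25 (adjusted p = 0.00573). Psat1, Psph, Mthfd1 and Aldh1l2 did not pass in either form. Psat1 stood at 5666, 3684, 8726 and 14605 on irradiated arrays, a spread that reached into the activated range, and differed by -1.10 ± 0.47.

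**Figure D3:**
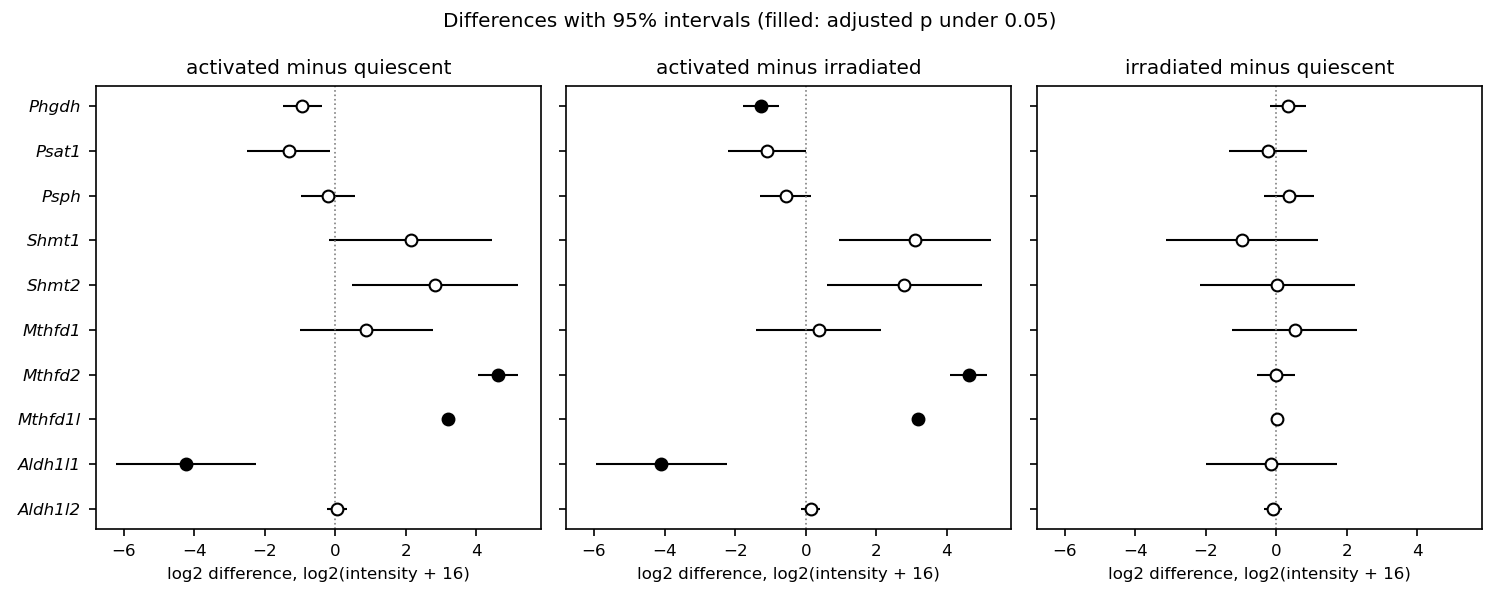
Log2 differences (points) with 95% intervals (lines) of the 10 enzymes in the 3 comparisons. Filled points have an adjusted p under 0.05. The points for Mthfd2 and Mthfd1l stand near 4.61 and 3.20 in both comparisons with activated cells and near 0 between irradiated and quiescent cells, where no point is filled.

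Irradiated quiescent cells, 48 h after irradiation, were compared with unirradiated quiescent cells. None of the 10 enzymes passed in limma, and none had an unadjusted p under 0.05, where 0.011% of all genes passed (0.0055% higher and 0.0055% lower) and 3.96% had such a p. None of the 24 probe sets passed either, where 0.02% of all probe sets did. Phgdh was the only enzyme whose arrays did not overlap, the lowest irradiated array at 13246 and the highest quiescent array at 13162, where 2.97% of all genes did not overlap (1.59% higher and 1.37% lower). Its log2 difference was 0.34 ± 0.22 (adjusted p = 0.970), with a 95% interval from -0.17 to 0.85. Mthfd2, Mthfd1l and Aldh1l2 were at background in both groups, so their small differences give no information on level. The 95% interval ran from -1.33 to 0.88 for Psat1, from -0.35 to 1.08 for Psph, from -1.99 to 1.72 for Aldh1l1 and from -1.25 to 2.29 for Mthfd1. It was widest for Shmt1 (-3.12 to 1.19) and Shmt2 (-2.16 to 2.23). At this number of arrays, differences within these intervals are not excluded for these enzymes.

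Taking the 3 groups in order of mean intensity, Phgdh was highest in irradiated cells (14005 ± 946), then in quiescent (11148 ± 1894) and lowest in activated cells (6003 ± 1949). Psat1 ran from quiescent (8712 ± 2741) through irradiated (8170 ± 4765) to activated cells (3392 ± 666), and its first pair did not differ beyond their spread. Psph was highest in irradiated cells (377 ± 133), then in quiescent (280.0 ± 64.8) and activated cells (238 ± 43.7), and no pair differed beyond the test. For Aldh1l1 the order was quiescent, irradiated and activated, again with the first pair within their spread. Shmt1, Shmt2 and Mthfd1 had their highest mean in activated cells. For Shmt1 the means were 184 ± 132 in quiescent, 68.5 ± 37.7 in irradiated and 956 ± 850 in activated cells, and for Shmt2 185.7 ± 219.6, 140.8 ± 82.0 and 869 ± 52.6.

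As a description of likeness, profiles over the 10 arrays were compared by the root-mean-square difference of log2(intensity + 16), each profile centred on its own mean, among 8247 genes with a mean above 100 in some group. Nearest to Phgdh were Ldhb, a lactate dehydrogenase subunit (0.23), the zinc transporter gene Slc39a1 (0.28) and Cat, the catalase gene (0.28). Ldhb went from 14780 in quiescent and 15659.5 in irradiated cells to 6430.3 in activated cells. Nearest to Aldh1l1 were Gramd3 (0.44), Gjb6, which encodes the astroglial gap junction protein connexin 30 (0.47), and Tmem176b (0.49). Nearest to Mthfd1 were Immp1l (0.41), Fam193b (0.42) and Kifap3 (0.51).

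Other genes of the pathway were read from 7 lists, of which 72 of 78 genes were measured. Between activated and quiescent cells 2 rose and 6 fell (11.1% against 6.01% of all genes), between activated and irradiated cells 5 rose and 6 fell (15.3% against 7.08%), and none passed between irradiated and quiescent cells. The clearest falls were in carriers. Slc6a9, the glial glycine transporter GlyT1, stood at 3989, 2617 and 2150 on quiescent and at 81, 29 and 213 on activated arrays (log2 difference -4.83 ± 0.60, adjusted p = 0.00328). Slc7a10, which carries small neutral amino acids such as serine and glycine, went from 1702, 2408 and 1483 to 88, 15 and 14 (-5.33 ± 0.59, adjusted p = 0.00196). Slc1a4, an exchanger of serine and other neutral amino acids, stood at 16979, 12019 and 16177 in quiescent and at 5001, 5012 and 4457 in activated cells (-1.63 ± 0.17, adjusted p = 0.00163). These 3 carriers passed against irradiated cells as well, and their calls held without each array in turn in both comparisons.

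Of the 15 carrier genes, 3 fell and none rose against quiescent cells, where 3.12% of all genes fell and 2.89% rose. Against irradiated cells 4 fell and 2 rose, where 3.68% of all genes fell and 3.4% rose. The glutamine carriers Slc38a1 and Slc38a2, which also take small neutral amino acids, rose against irradiated cells by 5.84 and 3.79 (adjusted p = 0.00566 and 0.0107). Slc38a2 stood at 513, 1257 and 177 on quiescent, at 62, 48, 27 and 101 on irradiated and at 795, 1102 and 1028 on activated arrays. Its activated arrays overlapped with the quiescent ones (0.95 ± 0.66, adjusted p = 0.644), and all irradiated arrays were below all quiescent arrays (-2.84 ± 0.62, adjusted p = 0.684), a difference that did not pass. Slc38a1 did not pass against quiescent cells either (3.40 ± 0.89, adjusted p = 0.0794). Slc46a1, the proton-coupled folate transporter, fell against irradiated cells (-3.76, adjusted p = 0.0365), a call lost without any 1 array other than irradiated replicate 4 or activated replicate 1 (highest adjusted p 0.116).

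The 11 measured genes of the folate cycle list did not pass in any comparison of the main fit. Against irradiated cells, 1 of them fell with log2(intensity + 64), 75th percentile scaling, trend and robust variance or array weights. The same count fell without the dimmest 50% of genes, or without genes near the lower limit on every array. By the mean of probe sets 1 rose and 1 fell, where 8.99% of all genes passed. With 1 array left out, at most 1 passed. Ggh, which trims the glutamate tail of stored folates, stood at 535, 165 and 578 on quiescent, at 368, 861, 637 and 563 on irradiated and at 200, 34 and 78 on activated arrays. Its log2 difference was -1.96 ± 0.66 against quiescent cells (adjusted p = 0.177) and -2.57 ± 0.62 against irradiated cells (adjusted p = 0.0510). Mtfmt, which formylates the initiator methionyl-tRNA of mitochondria, was at 5 to 30 on all arrays, and its difference of -0.73 ± 0.28 from quiescent cells did not pass (adjusted p = 0.251). Gart, which uses formyl-folate in purine synthesis, differed by 2.59 ± 0.88 from irradiated cells (adjusted p = 0.168). None of the 3 measured genes of the glycine cleavage system passed. Gldc, its decarboxylase, stood at 1625, 2326 and 708 on quiescent and at 1123, 187 and 120 on activated arrays (log2 difference -2.16 ± 0.79, adjusted p = 0.220). Activated replicate 1 was the highest of its group for Gldc, as for Aldh1l1, and the cause was not tested. Dld, the dihydrolipoamide dehydrogenase that this system shares with other enzyme complexes, stood at 134, 66 and 108 on quiescent, at 165, 449, 359 and 322 on irradiated and at 172, 189 and 147 on activated arrays. Both other groups thus lay above the quiescent arrays. The log2 difference from quiescent cells was 1.48 ± 0.34 in irradiated cells (adjusted p = 0.741) and 0.68 ± 0.36 in activated cells (adjusted p = 0.468), and neither passed. Gcsh, the hydrogen carrier protein gene, differed by 0.15 ± 0.32 between activated and quiescent cells.

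Over all genes, 6.01% passed between activated and quiescent cells and 7.08% between activated and irradiated cells. In the methionine cycle 1 of 8 genes rose and none fell in each comparison with activated cells. This was Ahcy, which hydrolyses S-adenosylhomocysteine, at 363, 53 and 62 on quiescent and 1017, 2618 and 954 on activated arrays (3.45 ± 0.73, adjusted p = 0.0356). That call was lost without any 1 array other than quiescent replicate 1 or irradiated replicate 2 (highest adjusted p 0.115), while against irradiated cells it held without each array in turn (4.54 ± 0.68, adjusted p = 0.00738). Among 11 users of serine and glycine, 1 fell against quiescent cells, Gatm of creatine synthesis (-3.87, adjusted p = 0.0340), and none passed against irradiated cells. The Gatm call was lost without any 1 quiescent or activated array or irradiated replicate 2 (highest adjusted p 0.109). Among the 4 genes of choline and sarcosine oxidation, Sardh fell against quiescent cells (-2.06, adjusted p = 0.0375), a call lost without any 1 array other than irradiated replicates 1 and 2 (highest adjusted p 0.118). Aldh7a1 fell against irradiated cells (-1.47, adjusted p = 0.0237), a call lost without any 1 activated array or irradiated replicate 1 or 4 (highest adjusted p 0.0840).

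The amino acid response list holds Atf4, a transcription factor known to raise serine synthesis genes, and genes that answer to it. Of its 20 measured genes, 1 rose and 1 fell against quiescent cells, and 2 rose and 1 fell against irradiated cells. Over all genes, 6.01% and 7.08% passed in these comparisons. Atf4 itself, named for its role after its values were seen, stood at 766, 1447 and 674 on quiescent and at 1086, 1350 and 2530 on activated arrays, which overlapped (0.76 ± 0.54, adjusted p = 0.644). Aldh18a1, which makes proline precursors, rose from 30, 5 and 5 to 784, 751 and 858 (4.90 ± 0.93, adjusted p = 0.0229), a call lost without any 1 activated array or quiescent replicate 2 or 4 (highest adjusted p 0.0790). Against irradiated cells, at 5, 5, 124 and 173, the difference was 3.80 ± 0.87 (adjusted p = 0.0436), lost without any 1 array other than irradiated replicates 3 and 4 (highest adjusted p 0.127). Slc7a11, the cystine carrier, fell from 1142, 4456 and 2005 to 104, 86 and 10 (-5.00 ± 0.69, adjusted p = 0.00562), and it did not pass when the irradiated arrays were left out altogether (adjusted p = 0.0675). Asns, the asparagine synthetase gene, rose against irradiated cells (4.28 ± 0.86, adjusted p = 0.0258), a call lost without any 1 irradiated array or activated replicate 2 or 3 (highest adjusted p 0.102).

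**Figure D4:**
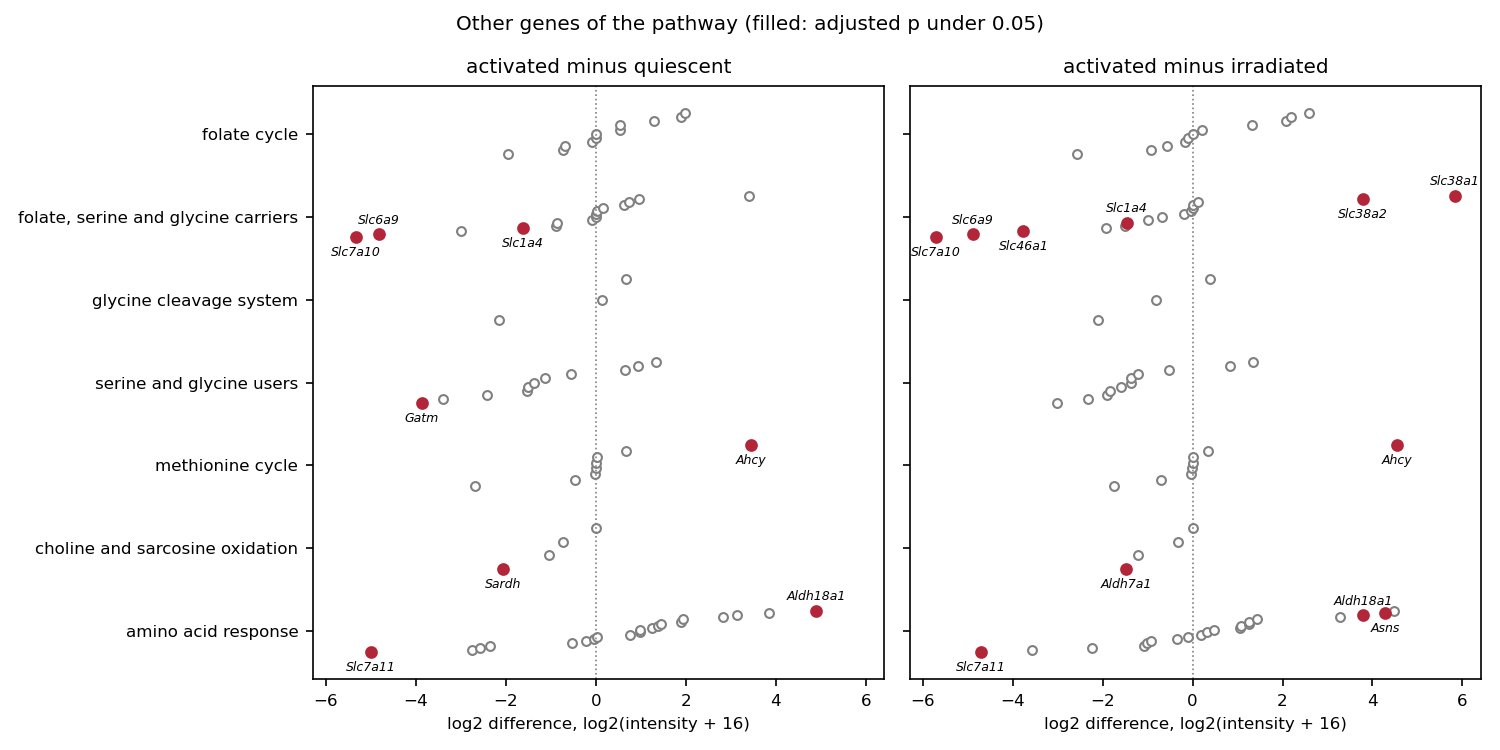
Log2 difference of each measured gene of the 7 pathway lists (points), activated minus quiescent (left) and activated minus irradiated (right). Filled, named points have an adjusted p under 0.05. The carriers Slc7a10, Slc6a9 and Slc1a4 lie below 0 and Ahcy above 0 in both panels, and no gene of the folate cycle list is filled.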

How the data were processed

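The deposited intensities were on a linear scale and in whole numbers; how the authors summarised and normalized the probes is not given in the sources used here. Per the labels' protocols, total RNA was reverse transcribed, amplified with the NuGEN Ovation Pico WTA System and labelled with biotin. Of 12 samples described, the value columns of quiescent replicate 3 and activated replicate 4 were empty in the table used here, which left 10 arrays. Intensities were taken as log2(intensity + 16). Of 45037 probe sets, 34945 had 1 gene symbol in the platform annotation, 932 several and 9160 none; symbols of 34741 were matched by Entrez identifier to RefSeq, with none changed. For each of 18193 genes, the probe set with the highest mean log2 value over all arrays was used. Group means were fitted over all 10 arrays with limma 3.58.1 in R 4.3.3 (lmFit, eBayes), and p-values were adjusted by Benjamini-Hochberg over all genes, or over all probe sets where stated. The steps were tested on simulated data. The members, the 7 pathway lists and the 10 marker lists were chosen with earlier results of these data known. All 10 members are named; a list gene is named where it was called, and in a list with no call, the 3 genes of smallest unadjusted p in any comparison; Atf4 is named beside this rule. Listed genes that were not measured were not analysed here. Alternatives changed the offset, scaling, filter, probe set rule, variance model, samples in the fit and replicate block, and left out each array in turn. The 3 comparisons share arrays and 1 fit, so they are not independent of each other.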

Additional observations from a re-analysis of the deposited data

Results flagged for a closer look

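Among 18 probe sets of these enzymes tested on the 4 irradiated arrays, 5 had an array far from the other 3 relative to the range of the group (Dixon's test, 95% level). Chance gives this in about 1 of 20 groups of continuous values, a rate that does not apply to whole numbers tied near a lower limit. Irradiated replicate 1 stood at 14 for Shmt1 probe set 1422198_a_at, where the others were tied at 13, so that this step of 1 unit alone met the criterion, and at 19 for Shmt2 probe set 1455084_x_at, where the others were at 170 to 197. It stood at 35 for Aldh1l1 probe set 1424401_at, where the others were at 5 or 6, near the lower limit. Irradiated replicate 4 stood at 80 for Shmt1 probe set 1425178_s_at (others 6 to 17), and irradiated replicate 3 at 1404 for Mthfd1 probe set 1415917_at (others 206 to 282).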

How the results depend on the processing

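The rises of Mthfd2 and Mthfd1l held under every alternative run. Genes called between activated and quiescent cells (1094) became 1895 with probe sets kept apart, 680 with only the 2 groups fitted, 444 with the replicate block and 773 to 1036 without each array in turn. Between activated and irradiated cells (1288) they became 2241, with probe sets kept apart, 675 with the block and 922 to 1218 without each array. Between irradiated and quiescent cells (2) they became 4 with log2(intensity + 1), 7 with probe sets kept apart, 1 under quantile normalization, trend and robust variance or array weights, 0 with only the 2 groups or the block, and 0 to 44 without each array. Enzymes called became 7 by the mean of probe sets (activated against quiescent) and 2 with the block (activated against irradiated), and were 2 to 3, 3 to 4 and 0 to 0 without each array against quiescent, against irradiated and between these. Between irradiated and quiescent cells the sign turned for Shmt2 (-0.033 with log2(intensity + 64), -0.35 by the mean of probe sets, -0.075 with the block), Mthfd1l (-0.0012 with array weights) and Aldh1l1 (0.026 with the block). It also turned when 1 array was left out for Psat1 (-0.56 to 0.098), Shmt2 (-0.84 to 0.96), Mthfd1 (-0.15 to 0.98) and Aldh1l1 (-0.36 to 0.081), for Aldh1l2 against quiescent cells (-0.084 to 0.14) and for Mthfd1 against irradiated cells (-0.095 to 0.75). Same-numbered arrays of different groups did not deviate together over all genes (r from -0.029 to 0.021 over 8 pairs). This cannot exclude that same-numbered samples share a day or batch, which the labels do not state. Under the replicate block, Aldh1l1 gave -4.03 (adjusted p = 0.232) and -4.05 (0.149) and Phgdh against irradiated cells -1.34 (0.0657). The calls of Gatm, Sardh and Slc7a11 against quiescent cells, of Slc46a1, Slc38a2, Aldh7a1 and Asns against irradiated cells, and of Ahcy and Aldh18a1 against both did not pass under the block either (adjusted p from 0.0502 to 0.222; Slc38a2 0.0933). The cause of these changes was not tested. Signals near the lower limit bound what Mthfd2, Mthfd1l and Aldh1l2 can show outside activated cells.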
